A study of Mus musculus with 6 samples.

Results

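The genes described here encode the enzymes with which the exocrine pancreas digests dietary lipid, and were chosen by name as a functional group: *Pnlip*, *Pnliprp1*, *Pnliprp2*, *Cel*, *Clps* and *Pla2g1b*, 6 of the 37224 genes in the table. Their RNA was measured in whole pancreata of wild type C57/Bl6J mouse embryos at 13.5 and 15.5 days post coitum (dpc), with 3 samples per stage. Both stages were untreated and carried no engineered allele, so that age was the comparison. Each sample was a pool of pancreata from up to 3 embryos. Because the organ was not sorted, fewer cells of a type and less RNA per cell cannot be told apart in any of the values below.

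Acinar cells secrete these enzymes into the gut as parts of one system. Pancreatic triglyceride lipase (*Pnlip*) cleaves dietary triglyceride, and bile salts would displace it from the surface of the fat droplet without its small cofactor, colipase (*Clps*). The lipase-related proteins *Pnliprp1* and *Pnliprp2* are close relatives of *Pnlip*: the first has little known lipase activity and the second also cleaves galactolipids and phospholipids. *Cel* encodes the bile salt-dependent carboxyl ester lipase, which takes cholesteryl esters and many other esters, and *Pla2g1b* encodes the secreted pancreatic phospholipase A2. In the rat, mRNAs of the related proteins are known to precede that of *Pnlip*, which comes up after birth.

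The samples held 10546028 to 16389237 counts each, and all pairs of samples within a stage differed by more than sampling noise (chi-square per gene 1.61 to 64.8). Part of the difference between samples of a stage ran with gene length. Across 15578 genes, which are not independent replicates, the Spearman rho of the log2 difference with exon length was −0.59 between replicates 1 and 2, −0.49 between replicates 1 and 3, and 0.53 between replicates 2 and 3 of 15.5 dpc. At 13.5 dpc it was −0.03, −0.33 and −0.31 for the same pairs. Replicate 1 of 15.5 dpc thus held relatively more counts on short genes, and the colipase gene, with 550 exon bases, is the shortest of the group. Acinar markers were detected at both stages, and 5 of 6 rose. *Amy2b*, an amylase gene, had the largest change (4.75), with 313 normalised counts at 13.5 dpc and 8415 at 15.5 dpc. *Ptf1a*, a transcription factor of acinar cells that early progenitors also express, had 630 ± 28.3 normalised counts at 13.5 dpc (SD, n = 3) and 2645 ± 754 at 15.5 dpc.

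The 3 lipase genes proper lie side by side on chromosome 19. In mm10 coordinates, *Pnlip* (ENSMUSG00000046008) occupies chr19:58670365-58681786, *Pnliprp1* (ENSMUSG00000042179) chr19:58728887-58744169 and *Pnliprp2* (ENSMUSG00000025091) chr19:58759723-58777533. All of them are on the plus strand, no other gene of the table lies between them, and the gaps are 47100 and 15553 bases. The others are dispersed: *Cel* (ENSMUSG00000026818) at chr2:28555795-28563403 and *Clps* (ENSMUSG00000024225) at chr17:28558210-28560766, both on the minus strand, and *Pla2g1b* (ENSMUSG00000029522) at chr5:115466262-115474722 on the plus strand.

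Reads can only be told apart between the neighbours if their transcripts differ often enough. Of the coding bases of the shorter partner, 68.96% were identical between *Pnliprp1* and *Pnlip*, 65.68% between *Pnliprp1* and *Pnliprp2*, and 68.74% between *Pnlip* and *Pnliprp2*. The longest identical run was 23, 19 and 20 bases in those pairs, and none of the 50-base windows of any of the 6 genes recurred in the transcript of another gene. The stretch below is shown to make this divergence visible. It is 80 aligned coding bases in sense direction (GENCODE M21, GRCm38.p6, plus strand) around an exon junction, within chr19:58730559-58732061 for *Pnliprp1* (exons 4 and 5), chr19:58673163-58673785 for *Pnlip* (exons 4 and 5) and chr19:58761650-58762287 for *Pnliprp2* (exons 3 and 4), with the intron left out. Capitals mark bases that differ from *Pnliprp1*, 13 in *Pnlip* and 14 in *Pnliprp2*.
Pnliprp1: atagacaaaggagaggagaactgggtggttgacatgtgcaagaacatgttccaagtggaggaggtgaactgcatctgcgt
Pnlip: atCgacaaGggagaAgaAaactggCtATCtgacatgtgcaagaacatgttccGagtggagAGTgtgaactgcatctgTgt
Pnliprp2: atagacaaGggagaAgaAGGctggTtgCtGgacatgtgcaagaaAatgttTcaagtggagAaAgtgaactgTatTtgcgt

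The sequences before the start sites are shown because these neighbours, alike in coding sequence, differed by orders of magnitude in RNA level (below). They are the 250 bases upstream of the RefSeq start (GRCm38.p6), 5′ to 3′ on the strand of the gene: chr19:58670115-58670364 (plus) for *Pnlip*, chr19:58728637-58728886 (plus) for *Pnliprp1*, chr19:58759473-58759722 (plus) for *Pnliprp2* and chr2:28563404-28563653 (minus) for *Cel*. RefSeq windows were found for 5 of the 6 genes, the exception being *Clps*. The acinar factor PTF1, which contains Ptf1a and Rbpjl, is known to bind a paired site with an E-box and a TC-box, and capitals mark the E-box CACCTG and the TC-box TTTCCC on either strand.
Pnlip: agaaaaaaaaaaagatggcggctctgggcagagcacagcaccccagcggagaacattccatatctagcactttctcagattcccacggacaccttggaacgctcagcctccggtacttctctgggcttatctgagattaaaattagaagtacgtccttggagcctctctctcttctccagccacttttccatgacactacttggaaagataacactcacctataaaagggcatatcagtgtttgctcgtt
Pnliprp1: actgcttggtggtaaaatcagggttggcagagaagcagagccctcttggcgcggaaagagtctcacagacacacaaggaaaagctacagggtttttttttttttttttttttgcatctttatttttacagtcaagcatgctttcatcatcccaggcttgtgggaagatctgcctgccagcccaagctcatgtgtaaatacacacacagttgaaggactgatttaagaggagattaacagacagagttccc
Pnliprp2: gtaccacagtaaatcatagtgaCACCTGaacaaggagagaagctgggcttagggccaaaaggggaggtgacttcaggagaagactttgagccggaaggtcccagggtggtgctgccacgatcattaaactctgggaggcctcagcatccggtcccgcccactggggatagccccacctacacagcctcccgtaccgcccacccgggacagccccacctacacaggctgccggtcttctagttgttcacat
Cel: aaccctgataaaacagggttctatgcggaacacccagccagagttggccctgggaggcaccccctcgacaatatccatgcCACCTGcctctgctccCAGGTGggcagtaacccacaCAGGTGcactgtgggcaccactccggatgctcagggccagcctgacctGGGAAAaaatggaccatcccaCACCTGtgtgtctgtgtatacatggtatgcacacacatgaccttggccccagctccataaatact

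In windows of 300 bases that also take in the first 50 bases of the gene, both strands were searched for CACCTG, for TTTCCC and for the general E-box CANNTG, which includes CACCTG. *Cel* held 4 matches to CACCTG, with first bases at −170, −154, −134 and −65 from the start, and 1 match to TTTCCC between the last of these, at −86 to −81. *Pnliprp2* held 1 match to CACCTG, at −228. *Pnliprp1* held 2 matches to CANNTG and none to the other motifs, and *Pnlip* and *Pla2g1b* held none to any of the 3. Of the 32851 windows of this length in the mouse set, 20.2% held CACCTG, 25.3% TTTCCC and 72.3% CANNTG. A match is a description of letters and not a bound site.

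*Pnliprp1* was the most abundant lipid enzyme transcript at both stages. Its normalised counts, that is counts scaled for library size and composition, were 22035, 26797 and 27563 in replicates 1 to 3 at 13.5 dpc, and 344317, 200912 and 254142 at 15.5 dpc. The lowest sample of the later stage was far above the highest of the earlier one. The mean rose from 25465 ± 2995 to 266457 ± 72491 (SD, n = 3 each), a 10.5-fold increase (log2 fold change 3.39 ± 0.22 (SE), edgeR adjusted p = 0.000355). Among all genes of the table, *Pnliprp1* went from rank 15 to rank 2 by normalised counts, and from rank 16 to rank 3 per kb of exon.

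Colipase RNA also rose. *Clps* had 5018, 5380 and 5521 normalised counts at 13.5 dpc, a narrow range, and 87056, 33587 and 46567 at 15.5 dpc. The stages did not overlap, but the later samples were spread over 2.59-fold, and replicate 1 stood at 2.17 times the mean of the other 2. Its log2 fold change was 3.39 ± 0.34 (edgeR adjusted p = 0.00115). With the length trend between samples removed it was 2.95.

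*Cel* rose as well. The earlier samples held 3383, 4082 and 4308 normalised counts, and the later ones 38779, 23257 and 28952. Again every later sample exceeded every earlier one, and replicate 1 was the highest of its stage. The log2 fold change was 2.95 ± 0.21 (7.73-fold, edgeR adjusted p = 0.000472). One gene in the table, *Gm13381*, overlaps *Cel* on the opposite strand, and it had at most 2 counts in a sample.

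*Pnliprp2* was expressed at a far lower level and rose with the others. It had 104, 92.6 and 94.8 normalised counts at 13.5 dpc, and 1020, 457 and 568 at 15.5 dpc. The earlier samples lay close together, with an SD of 5.97, whereas replicate 1 of the later stage was 1.99 times the mean of the other 2. The log2 fold change was 2.81 ± 0.30 (edgeR adjusted p = 0.00146).

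*Pnlip* itself, the main lipase of the adult gland, was barely detected. Its raw counts of 4, 4 and 17 in the earlier samples stood against 27, 15 and 21 in the later ones, or 3.65, 3.43 and 12.2 against 37.4, 15.3 and 26.4 normalised counts. One sample of the earlier stage, replicate 3, came close to the lowest of the later stage, and its raw count was the larger of those 2. Its 17 counts have a 95% Poisson interval of 9.90 to 27.2, and 4 counts one of 1.09 to 10.2, which cover counting error only. The log2 fold change was 1.91 ± 0.54 (3.76-fold), with an edgeR adjusted p of 0.0421. This call was lost in 4 of the 6 fits that left out 1 sample. The adjusted p was 0.137 without replicate 1 and 0.135 without replicate 2 of 13.5 dpc, 0.0550 without replicate 1 and 0.120 without replicate 3 of 15.5 dpc, and the log2 fold change ranged from 1.58 to 2.82 over all 6 such fits.

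*Pla2g1b* was as scarce, with raw counts of 5, 9 and 11 at 13.5 dpc and 6, 13 and 13 at 15.5 dpc. In raw counts the stages overlapped, and in normalised counts they were separated only by 7.90 against 8.30. The gene did not pass the count filter. In a fit without that filter its log2 fold change was 0.87 ± 0.40, with an edgeR adjusted p of 0.183, so no change was detectable at this depth.

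**Figure D1:**
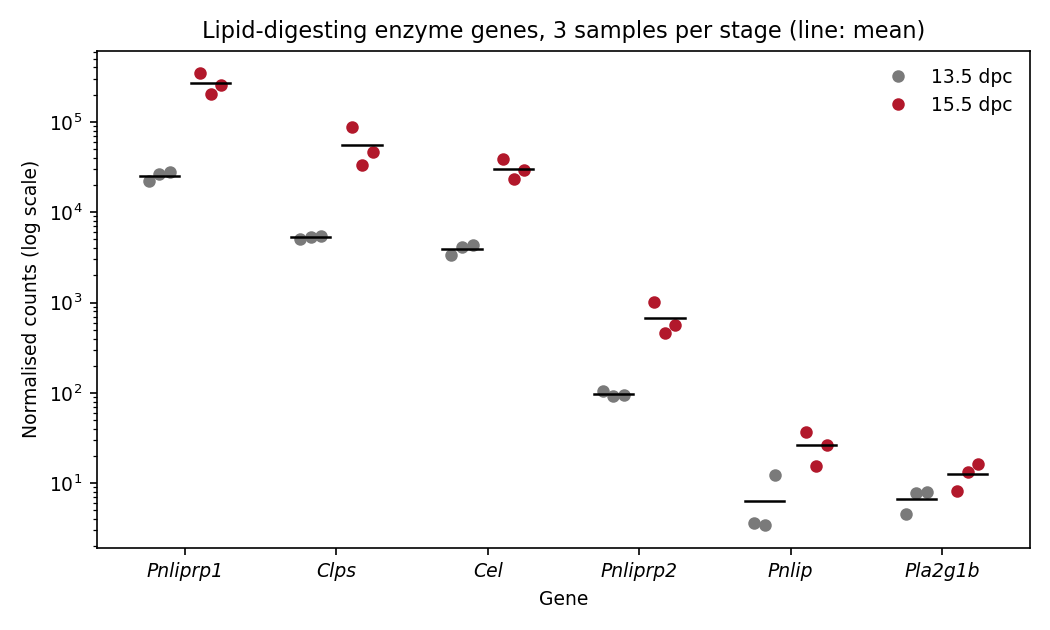
Normalised counts (log axis) of the 6 lipid enzyme genes, with 1 point per sample, grey for 13.5 dpc and red for 15.5 dpc, and a line at the mean of each stage. *Pnliprp1* lies between 22035 and 27563 and then between 200912 and 344317, while *Pnlip* and *Pla2g1b* stay under 40 in every sample.

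Of the 6 genes, 4 (*Pnliprp1*, *Clps*, *Cel* and *Pnliprp2*) rose at an edgeR adjusted p of at most 0.05 in the comparison and in each fit with 1 sample left out, *Pnlip* rose with the reservation above, and *Pla2g1b* was not tested. None fell. The shares of all 15578 genes tested were 11.6% higher and 10.7% lower at 15.5 dpc. *Pnlip* passed the count filter through its 15.5 dpc samples, so no count over the genes that passed is read as support. Under the thresholds of the study, applied here to the edgeR fit in place of DESeq2, 5.82% of genes tested were higher. The thresholds were an adjusted p of at most 0.1, more than 100 normalised counts in either stage, a fold change above 1.6, and protein-coding genes only. By them the same 4 genes rose and *Pnlip* failed the level. For single values, an exact two-sided permutation test gave p = 0.1 for each gene, the smallest that 3 against 3 allows. Stages that did not overlap, with 15.5 dpc higher, were found in 22.8% of genes.

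**Figure D2:**
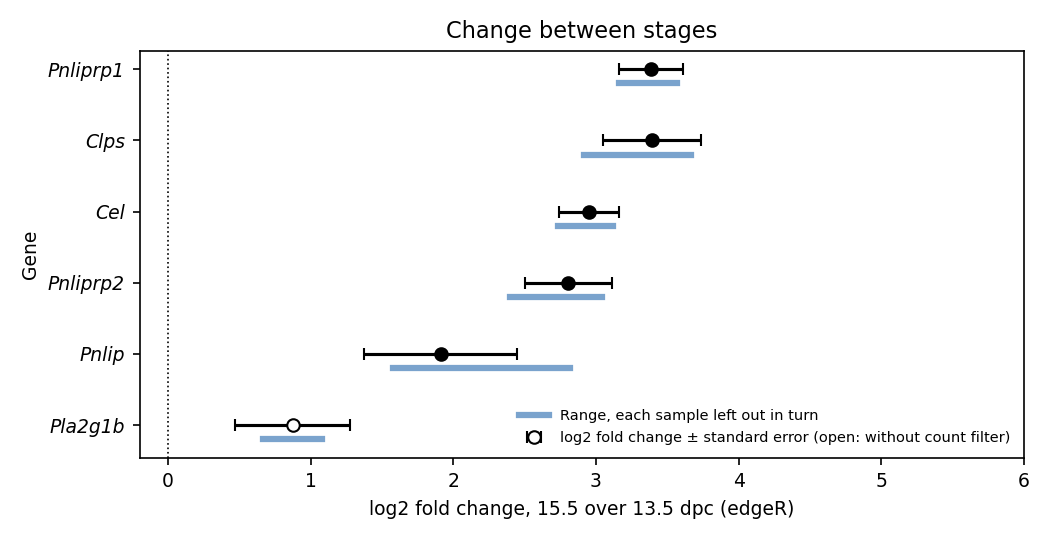
Log2 fold change of each gene from 13.5 to 15.5 dpc (edgeR), with bars of 1 standard error and, in blue, the range when each sample is left out in turn. *Pnliprp1*, *Clps*, *Cel* and *Pnliprp2* lie between 2.81 and 3.39, and the blue range of *Pnlip* extends from 1.58 to 2.82. The open point is *Pla2g1b*, fitted without the count filter.

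Levels of different genes were compared per kb of exon. At 13.5 dpc the order was *Pnliprp1* (15729 ± 1850 normalised counts per kb), *Clps* (9648 ± 472), *Cel* (1865 ± 229), *Pnliprp2* (62.0 ± 3.81), *Pla2g1b* (9.43 ± 2.64) and *Pnlip* (4.33 ± 3.37). At 15.5 dpc the first 4 kept their order, with 164581 ± 44775, 101339 ± 50707, 14415 ± 3732 and 435 ± 190, and *Pnlip* (17.8 ± 7.42) and *Pla2g1b* (17.8 ± 5.71) were level. *Pnlip* was below *Pla2g1b* in each of the 3 samples at 13.5 dpc, at 0.38, 0.21 and 0.74 times its level, though their ranges overlapped between samples. At 15.5 dpc it stood at 2.16, 0.55 and 0.78 times, on both sides of equality. *Pnliprp1* and *Clps* overlapped between samples at 15.5 dpc, although *Pnliprp1* was the higher within each of the 6 samples, by 1.34 to 2.03 times. *Pnlip* RNA amounted to 0.0128% to 0.0443% of the *Pnliprp1* counts of the same sample at 13.5 dpc, and 0.00763% to 0.0109% at 15.5 dpc.

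Ratios between genes within a sample ask whether the genes rose by different factors, and depend neither on library size nor on its scaling, though a trend with gene length can move them. Of 15 pairs, 9 had ratios that did not overlap between the stages. Each of these had an exact permutation p of 0.1, the smallest possible here, and 0.167 after adjustment over the 15 pairs, so none could pass the threshold. The 15 pairs reuse the same genes, and most of the 9 involve the scarce *Pnlip* or *Pla2g1b*. The share over all gene pairs of the table was not computed, so the count of 9 is not read as a result.

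The tightest ratio was that of *Pnliprp1* to *Cel*. Per kb it was 8.46, 8.53 and 8.31 at 13.5 dpc, and 11.5, 11.2 and 11.4 at 15.5 dpc. Both stages were narrow and well separated, with a mean log2 ratio of 3.08 ± 0.02 and then 3.51 ± 0.02 (SD, n = 3), a 1.35-fold shift. Replicate 1 of 15.5 dpc, which was high for each of the 2 genes, did not stand apart in their ratio.

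The lipase-related gene and colipase, by contrast, kept a ratio that overlapped between the stages. *Pnliprp1* over *Clps* was 1.49, 1.69 and 1.70 at 13.5 dpc, and 1.34, 2.03 and 1.85 at 15.5 dpc. The later stage held both the lowest and the highest value, and the difference in mean log2 ratio was 0.08 (exact permutation p = 0.8), which does not show that the genes rose equally. It was 0.25 with the length trend removed and 0.26 without replicate 1 of 15.5 dpc (exact permutation p = 0.2 each). *Clps* over *Cel* also overlapped, with 5.67, 5.04 and 4.90 at 13.5 dpc and 8.59, 5.53 and 6.15 at 15.5 dpc. The log2 shift was 0.35, and 0.11 with the length trend removed and 0.17 without replicate 1 of 15.5 dpc.

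*Pnliprp1* and *Clps* moved away from *Pnliprp2*, whereas the ratio of *Cel* to it overlapped between the stages. *Pnliprp1* over *Pnliprp2* was 205, 280 and 281 at 13.5 dpc, and 327, 425 and 433 at 15.5 dpc. *Clps* over *Pnliprp2* was 138, 166 and 166, and then 243, 209 and 234. Neither ratio overlapped between stages, and the shifts were 1.55-fold and 1.47-fold. *Cel* over *Pnliprp2* was 24.3, 32.8 and 33.8 at 13.5 dpc, and then 28.3, 37.9 and 38.0. The lowest later value lay within the earlier range, and the shift was 1.15-fold (exact permutation p = 0.5). On the log2 scale this is 0.20, and it spanned 0.05 to 0.34 with 1 sample left out, the lowest without replicate 1 of 13.5 dpc and the highest without replicate 1 of 15.5 dpc.

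**Figure D3:**
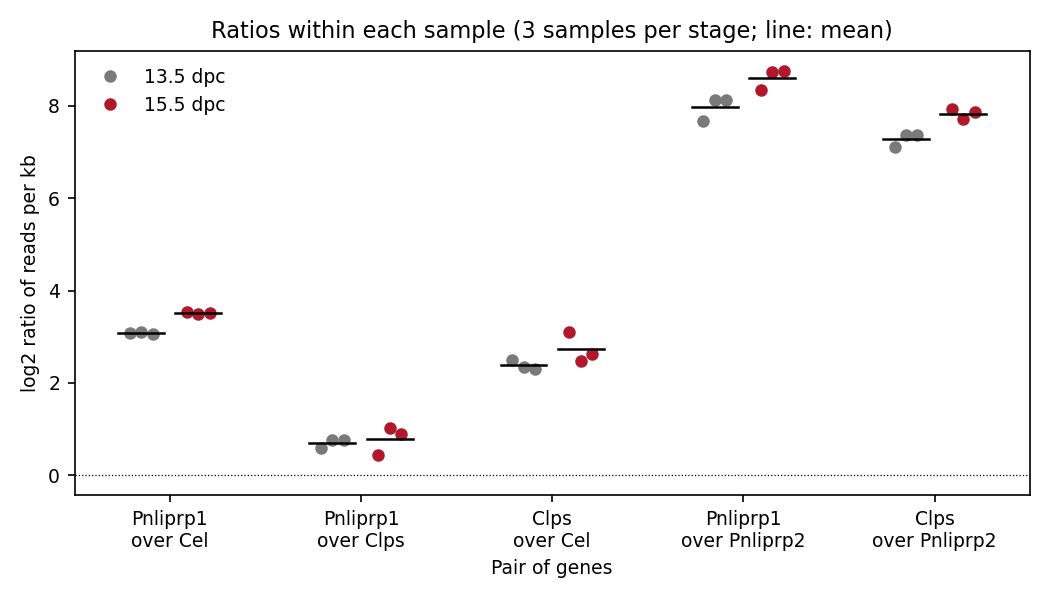
Log2 ratio of reads per kb for 5 pairs of lipid enzyme genes, with 1 point per sample (grey 13.5 dpc, red 15.5 dpc) and a line at the mean. *Pnliprp1* over *Cel* moves from 3.08 to 3.51 with hardly any spread, while *Pnliprp1* over *Clps* overlaps between the stages.

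Together the 6 genes held 0.260%, 0.311% and 0.319% of all counts at 13.5 dpc, and 3.15%, 2.02% and 2.49% at 15.5 dpc. The stages were far apart, with a difference in means of 2.26 percentage points (exact permutation p = 0.1). Exact binomial 95% intervals, which cover counting error only, were narrow: 3.14% to 3.16% for replicate 1 of 15.5 dpc. *Pnliprp1* alone held 2.30%, 1.57% and 1.91% of the later samples.

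The share within the digestive enzymes behaved differently. Over 26 enzyme genes (these 6 and 20 genes of proteases, amylases, elastases and ribonuclease), the lipid genes made up 31.2%, 32.5% and 31.1% of reads per kb at 13.5 dpc, and 28.2%, 33.6% and 31.2% at 15.5 dpc. The later samples lay on both sides of the earlier ones, and the means were 31.6% ± 0.78 and 31.0% ± 2.69 (exact permutation p = 0.8). This share moved with 1 gene: without *Ctrb1*, a chymotrypsinogen and the most abundant enzyme gene, the share of the lipid genes rose by 11.7 points (p = 0.1, exact permutation test).

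Within that total, *Ctrb1* went from 44.2% ± 0.43 to 54.6% ± 2.76, the carboxypeptidase gene *Cpa1* went from 15.0% to 5.90%, and neither overlapped between stages (exact permutation p = 0.1 each). *Pnliprp1* held 18.2% ± 0.78 and then 18.6% ± 2.95, and *Clps* 11.2% ± 0.49 and then 10.7% ± 0.62, and each overlapped. *Cel* went from 2.15% ± 0.09 to 1.63% ± 0.28, without overlap.

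**Figure D4:**
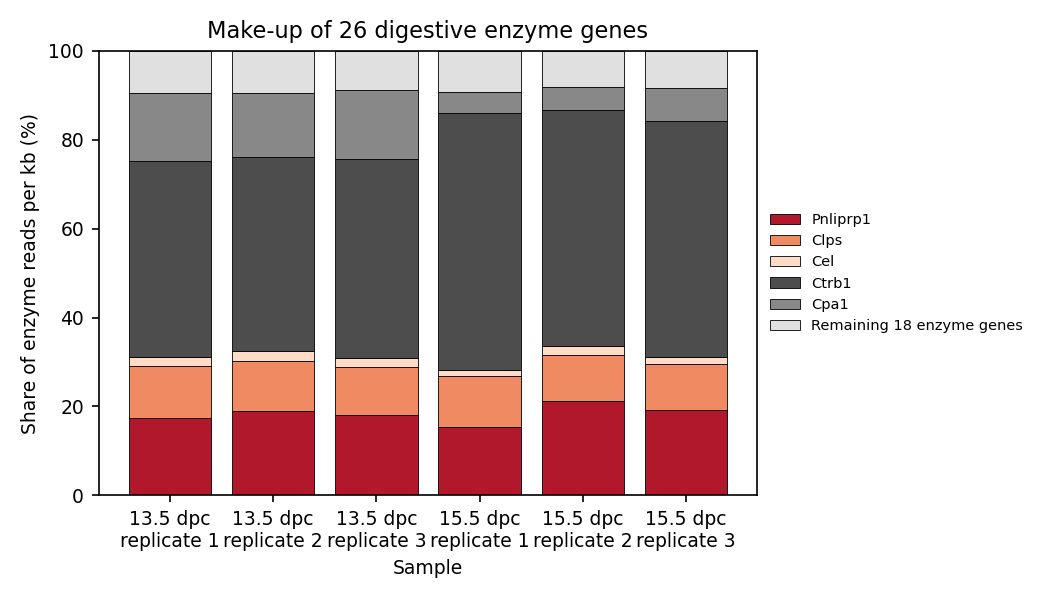
Share of reads per kb (percent of the 26 enzyme genes) in each sample, stacked by gene from *Pnliprp1* at the bottom. The *Pnliprp1* part averages 18.2% and then 18.6%, while the *Cpa1* part shrinks from 15.0% to 5.90% on average. *Pnliprp2*, *Pnlip* and *Pla2g1b* are too scarce to see and are not drawn.

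All 20 of the other digestive enzyme genes were tested and rose, where 11.6% of all genes tested were higher. Their median log2 fold change was 5.73, against −0.01 over all genes tested. It was 5.60 with *Cela3a*, at 3 counts or fewer in every 13.5 dpc sample, set at its lower bound. *Cela3a*, *Amy2a5*, *Try4*, *Ctrc*, *Klk1* and *Rnase1* had means of 0.59 to 5.42 normalised counts at 13.5 dpc. These passed the count filter through their 15.5 dpc samples, so the count of 20 is not read as support. *Ctrc* had 795 normalised counts in replicate 2 of 15.5 dpc, and 77.5 and 55.4 in replicates 1 and 3. The largest changes were those of *Rnase1*, the pancreatic ribonuclease (6.85 ± 0.72), *Try4*, a trypsin (6.60), and *Cela3b*, an elastase (6.41), where the trypsin, amylase and *Cela3* genes have near-identical copies that can share reads and are uncertain one by one. Of the 20, 16 had a log2 fold change above that of *Clps*. *Cpa1* (2.04) and *Ctrl* (1.83) were among those below *Cel*, and were named after their values were seen.

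The wider acinar programme is given for comparison. Of 9 genes of acinar secretory accessory proteins, 7 were tested and 7 rose, with a median log2 fold change of 3.30. Over all genes tested, 11.6% were higher. *Cuzd1* and *Reg2* did not pass the count filter. *Zg16* and *Gp2* passed it through their 15.5 dpc samples, so the count of 7 is not read as support. *Sycn* (syncollin, a zymogen granule protein) rose by 4.80. *Zg16*, another granule protein, went from at most 1 count per sample to 138 ± 104 normalised counts, and *Gp2*, the main granule membrane protein, from 2.14 ± 0.64 to 37.6 ± 16.2. Of 8 acinar transcription factors, 5 rose: *Bhlha15* (2.23), *Rbpjl* (2.08), *Ptf1a* (2.07), *Xbp1* (1.25) and *Gata4* (1.15). *Rbpj*, the Notch effector that Rbpjl replaces in the PTF1 complex, fell by 0.33 on the log2 scale (edgeR adjusted p = 0.0481). This call was lost in at least 8 of 15 alternatives, those in which no gene of the list was called lower. *Nr5a2* stood at 0.03 (edgeR adjusted p = 0.955) and *Gata6* at −0.21 (adjusted p = 0.246).

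Of the lipid genes, *Pnliprp1*, *Clps*, *Cel* and *Pnliprp2* were set against *Rbpjl*, whose product pairs with Ptf1a, a choice of genes made with their larger fold changes known. *Pnlip* and *Pla2g1b*, with smaller log2 fold changes (1.91 and 0.87) than *Rbpjl*, were not set against it. Per kb and within each sample, *Pnliprp1* over *Rbpjl* was 26.7, 29.8 and 27.1 at 13.5 dpc and 79.6, 55.4 and 69.4 at 15.5 dpc. The stages did not overlap, and the ratio rose 2.42-fold (exact permutation p = 0.1). The shift was 2.29-fold for *Clps*, 1.79-fold for *Cel* and 1.56-fold for *Pnliprp2*. On the log2 scale the shifts of *Pnliprp1*, *Clps* and *Cel* were 1.276, 1.195 and 0.843. Without replicate 1 of 15.5 dpc, which held relatively more counts on short genes, they were 1.156, 0.899 and 0.732. Ratios to *Rbpjl* and *Epcam* were not corrected for the length trend. For *Pnliprp2* the stages were separated only by 0.1299 against 0.1303, and the log2 shift of 0.64 was 0.39 without replicate 1 of 15.5 dpc. Against *Epcam*, a surface protein of all pancreatic epithelium, the shifts were 8.21-fold, 7.76-fold, 6.08-fold and 5.30-fold for *Pnliprp1*, *Clps*, *Cel* and *Pnliprp2*. These 8 ratios were chosen after seeing the data, and none overlapped between stages.

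Other lipid enzyme genes were counted in lists. Among 14 other lipases of the same and related families and their partners, 9 were tested, of which 5 rose and 1 fell, with a median log2 fold change of 0.60. *Liph*, a phosphatidic acid-selective phospholipase, rose by 2.84 on the log2 scale (edgeR adjusted p = 0.000668), *Lipc*, hepatic lipase, by 1.26 (0.0239), and *Gpihbp1*, the endothelial anchor of lipoprotein lipase, by 1.10 (0.0119). *Lipg*, endothelial lipase, fell by 1.07 (0.0125), and *Lpl*, lipoprotein lipase itself, stood at −0.09 (0.534). The number called higher was 2, 3 and 3 without replicates 1, 2 and 3 of 13.5 dpc, and the number called lower was 0 without replicate 1 or 2 of 13.5 dpc and 2 without replicate 2 of 15.5 dpc. It was also 2 with DESeq2, with the length trend removed and with scaling by library size only, under which the median was 0.39. The gastric lipase gene *Lipf*, along with *Lipi*, *Lipk*, *Lipm* and *Lipn*, had 0 counts in every sample, where a count of 0 allows up to 3 counts per sample.

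Of 11 genes of other secreted phospholipases A2 and their receptor, 4 were tested: *Pla2g12a* rose by 1.23 (edgeR adjusted p = 0.0151) and *Pla2g2d* fell by 1.14 (adjusted p = 0.00405). No gene of this list was called higher without replicate 1, 2 or 3 of 13.5 dpc. Of 11 genes of intracellular lipases and their regulators, all tested, 3 rose and none fell, with a median of −0.01. With scaling by library size only, 2 rose and 2 fell, with a median of −0.24, and 1 fell without replicate 1 or 2 of 15.5 dpc. The 3 that rose with TMM scaling were *Mgll* (monoglyceride lipase, 1.25), *Nceh1* (a neutral cholesterol ester hydrolase, 0.96) and *Pnpla2* (adipose triglyceride lipase, 0.41). Of 11 genes of intestinal fat uptake and re-esterification, 7 were tested and 2 rose, *Dgat2* (0.61) and *Scarb1* (0.47). Neither was called without replicate 1, 2 or 3 of 13.5 dpc or with scaling by library size only, and 1 was called without replicate 3 of 15.5 dpc.

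Markers of neighbouring tissues and cell types were also read. Of the intestinal markers, *Cdx1*, *Cdx2*, *Fabp2* and *Isx* had at most 5 counts in any sample, and the stomach markers *Tff1* and *Muc5ac* had 0. Summed over each list, the 5 intestinal markers had between 140 and 163 normalised counts at 13.5 dpc and between 302 and 365 at 15.5 dpc, and the 6 stomach markers between 19.7 and 26.4 and then between 84.9 and 288. Most of these counts at 15.5 dpc were *Vil1* (336, log2 fold change 1.195) and *Tff2* (153, log2 fold change 4.69), the only genes of these lists that were tested. The stomach markers *Gkn1*, *Gkn2* and *Sox2* had means of 1.61, 5.86 and 9.42 normalised counts at 13.5 dpc, and of 0, 0 and 5.77 at 15.5 dpc. Their part in the rise of the lipid genes was not tested. Of 5 liver markers, *Afp*, *Serpina1a* and *Fgb* fell, with log2 fold changes of −0.66, −2.38 and −1.25. Of the epithelial markers, *Epcam* stood at 0.34 (edgeR adjusted p = 0.127), while *Krt18*, *Krt8* and *Cdh1* rose by 1.17, 0.76 and 0.43. Of 5 endocrine markers, the insulin genes *Ins1* and *Ins2* rose by 2.57 and 2.64 and *Neurog3* fell by 0.33. Of 5 duct markers, *Krt19* rose by 1.01, and *Sox9* and *Spp1* fell by 0.67 and 0.50. Of 5 blood markers, *Hbb-bs* rose by 1.35 and *Csf1r* fell by 0.45, and of 2 spleen markers *Tlx1* fell by 1.22. Of 6 mesenchymal markers, *Pdgfra* fell by 1.33 and the others did not pass the test. Summed mesenchymal markers ranged from 119000 to 134700 normalised counts at 13.5 dpc and from 85610 to 129100 at 15.5 dpc. The part of these cell types in the rise of the lipid genes was not tested.

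The genes most like each lipid enzyme gene were sought over the 6 samples, by Pearson r of log2 CPM among 14006 protein-coding genes. Closest to *Pnliprp1* were *Serpini2* (a pancreatic serine protease inhibitor, r = 0.99988), *Amy2a2* and *Cbs*, to *Cel* *Rpn2*, *Cbs* and *Serpini2*, and to *Clps* *Cela1* (an elastase, r = 0.99995), *Fkbp11* and *Rhou*. Those of *Pnliprp2* were *Tmbim1*, *Gc* and *Lbh*, and those of *Pnlip* *Rnf39*, *Ctdsp1* and *Litaf*. Among themselves, *Pnliprp1*, *Clps*, *Cel* and *Pnliprp2* had r of 0.99 to 1.00, highest for *Pnliprp1* with *Cel*, and *Pnlip* had 0.89 to 0.90 with the others. The samples share 2 stages, so any pair of genes that rose scores high: 680 to 1961 genes exceeded an r of 0.9 with a given lipid gene.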

How the data were processed

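RNA of wild type embryonic pancreas was measured in 3 pools per stage by poly(A) strand-specific single-end sequencing. The authors aligned reads to mm10 with GSNAP and used featureCounts 1.4.6 on Ensembl genes, with uniquely aligned reads (base calls: bcl2fastq 1.8.4, per the labels), and deposited raw counts with the exon length of each gene. Whether counting used strand was not given in the sources used here. Gene coordinates and strands are those deposited with the counts. Symbols and gene types were taken from an mm10 annotation (GENCODE M21), and 35449 of 37224 identifiers matched a symbol. Promoter windows are from RefSeq (GRCm38.p6).

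Counts were filtered (filterByExpr), scaled with TMM factors (0.847 to 1.08) and tested with the quasi-likelihood test of edgeR 4.0.16 in R 4.3.3 (limma 3.58.1, DESeq2 1.42.0, Python 3.11.15), with no covariate and Benjamini-Hochberg adjustment over 15578 genes, called at 0.05. For normalised counts, each sample was brought to a common size, the geometric mean over samples of total counts times TMM factor, and values per kb are divided by exon length. Log2 CPM used a prior count of 2. Standard errors are the log2 fold change over the root of F. On simulated data over 15401 genes of this comparison, 99 of 100 genes changed 2-fold and 100 of 100 changed 4-fold were recovered, with 14 false calls. The simulation gave every gene the same dispersion, held no length trend or outlying sample, and changed only genes above a minimum level. It therefore does not measure recovery or false calls in the real samples, nor for genes as scarce as *Pnlip* and *Pla2g1b*.

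The genes and lists were chosen with earlier results of these data known. All 6 genes are named, every acinar transcription factor, the called genes with the 3 largest changes in each direction of each list, and the 3 genes most like each lipid gene. Alternatives changed the scaling, filter, tool, length correction, gene units and samples.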

Additional observations from a re-analysis of the deposited data

How the results depend on the processing

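*Pnliprp1*, *Clps*, *Cel* and *Pnliprp2* kept their direction and their call under all 15 alternatives run for each (other scalings, filters, DESeq2, the replicate block, removal of the length trend and each sample left out), and with samples left out their log2 fold changes spanned 3.16 to 3.57, 2.92 to 3.67, 2.74 to 3.12 and 2.40 to 3.04. That of *Pnlip* spanned 1.58 to 2.82, with adjusted p of 0.0067 to 0.137 (edgeR), and it had too few counts for the filter of at least 10 in every sample. The number of genes called was 3467, 1454 under the thresholds of the study, and 1235 to 7620 with samples left out: 1235, 1331 and 1402 without replicates 1, 2 and 3 of 13.5 dpc, and 4266, 7620 and 1438 without those of 15.5 dpc. The cause was not tested. Scaling by library size only, in place of TMM, put the median change over all genes at −0.22 (log2) and the share of called genes that were higher from 52.1% to 27.7%.

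The difference in enzyme share of the lipid genes, −0.61 points, turned to 3.59 with counts in place of reads per kb (exact permutation p = 0.2) and to 11.7 without *Ctrb1* (exact permutation p = 0.1), and spanned −1.90 to 0.78 with samples left out, at 0.78 without replicate 1 of 15.5 dpc. The shift in log2 ratio of *Pnliprp1* over *Clps* spanned −0.041 to 0.26 with samples left out, the lowest without replicate 2 of 15.5 dpc, and that of *Pnliprp2* over *Pnlip* −0.096 to 0.84, the lowest without replicate 3 of 13.5 dpc. No cause was tested.

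The replicate numbers did not pair the samples (correlations of deviations 0.22, −0.22 and 0.038). With the replicate block, 2676 genes and 5 lipid genes were called, and *Pnlip* stood at 1.99 (edgeR adjusted p = 0.0307).

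Counting error limits *Pnlip* and *Pla2g1b*. With 3 samples per stage, permutation tests could not reach 0.05.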
